A study of Mus musculus with 6 samples.

Results

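Of the 55367 gene names in the count table, 9 are cortical layer identity transcription factors, and these are the genes described here. They were taken by name: Cux1, Cux2, Pou3f2 and Rorb as the 4 upper-layer factors, and Bcl11b, Fezf2, Tbr1, Sox5 and Foxp2 as the 5 deep-layer factors. All 9 had enough reads to be among the 16976 genes tested. RNA came from cerebral cortical cells of C57BL/6J mice, dissociated at postnatal day 1 and kept for 2 days in vitro, with 3 WT and 3 Fmr1-KO libraries. The Fmr1-KO mouse lacks the RNA-binding protein FMRP in all of its cells and serves as a model of fragile X syndrome. Astrocytes and myelin were depleted with antibody-coated beads before plating. The methods describe the same protocol for both genotypes, but do not state whether the genotypes were processed side by side. The study describes its samples as derived independently, but the sex and litter of the pups behind each library are not given in the sources used here, and the p-values measure the spread between these libraries.

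The neocortex is built of layers of projection neurons, and the layer in which a neuron settles is tied to where its axon goes. Deep-layer neurons (layers V and VI) are born first and send axons to the thalamus, brainstem and spinal cord, whereas upper-layer neurons (layers II to IV) are born later and mostly connect within the cortex. The transcription factors described here mark these fates and help to set them, in part by repressing one another, as TBR1 does to Fezf2 in layer VI. In mice all of these neurons have been born by birth, so cultures at this age hold both classes.

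Total counts ran from 30348556 to 35126207 per library. Fmr1 had a level of 110 to 118 CPM (read counts brought to a common library size) in WT and 54.2 to 61.4 CPM in Fmr1-KO libraries, in the direction that the labels require. All CPM values use library sizes corrected for composition by TMM (trimmed mean of M-values). Pan-neuronal markers summed to between 4946 and 5085 CPM in WT and between 4305 and 4505 CPM in Fmr1-KO, and all 11 were detected. Despite the depletion, the 6 astrocyte markers summed to between 3979 and 4110 CPM in WT and between 3341 and 3694 CPM in Fmr1-KO, so the cultures were not neurons alone. In such bulk RNA, fewer cells of one type and less RNA per cell cannot be told apart.

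The deep-layer factors were, as a group, higher in Fmr1-KO relative to WT, and the upper-layer factors were split. Of the 5 deep-layer factors, 4 rose (Bcl11b, Fezf2, Tbr1 and Foxp2), 0 fell and Sox5 did not pass. A gene passed when edgeR, fitted to all tested genes, gave it a Benjamini-Hochberg adjusted P under 0.05. Of the 4 upper-layer factors, Pou3f2 rose, Cux2 fell (but was higher when libraries were scaled to projection neuron markers), and Cux1 and Rorb did not pass. Among all tested genes, 20.7% were called higher and 21.9% were called lower, so a call in either direction is common in these libraries. The median log2 fold-change was 0.21 for the deep-layer factors, -0.06 for the upper-layer factors and 0.01 for all tested genes. Apart from Pou3f2, each factor moved by 0.38 or less on the log2 scale.

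**Figure D1:**
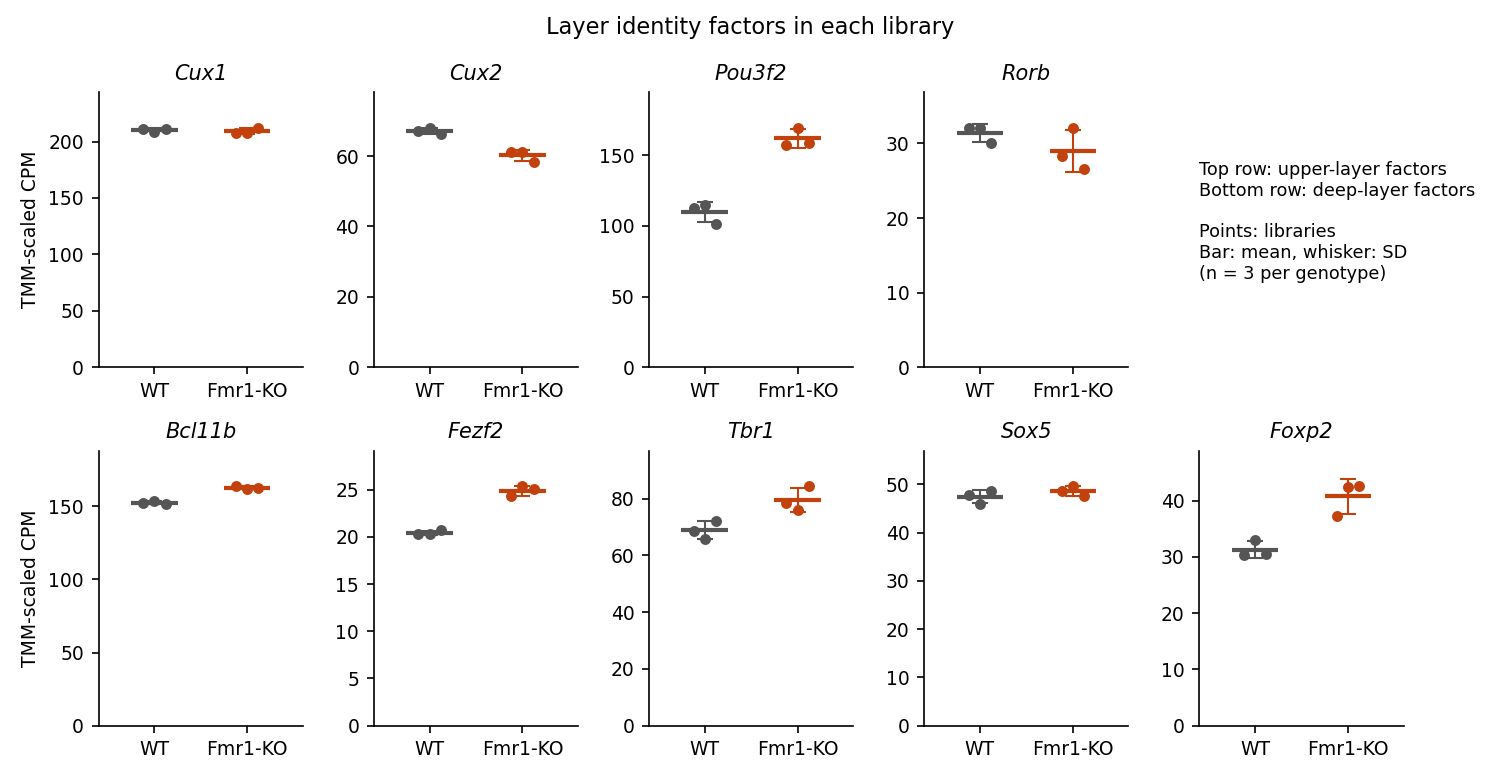
Each panel plots the TMM-scaled CPM (y axis, starting at 0) of a layer identity factor in the 3 WT libraries (grey) and the 3 Fmr1-KO libraries (dark orange), with the mean as a bar and the SD as a whisker. The genotypes are apart for Cux2, Pou3f2, Bcl11b, Fezf2, Tbr1 and Foxp2, and overlap for Cux1, Rorb and Sox5.

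Pou3f2 changed most. It encodes BRN2, a POU-homeodomain protein that is made in progenitors and in migrating upper-layer neurons and acts together with its paralog BRN1. Pou3f2 is a gene with a single annotated transcript on the minus strand of chromosome 4, from 22482780 to 22488366 in GRCm38. Its level was 113, 114 and 101 CPM in WT replicates 1 to 3 and 158, 169 and 159 CPM in Fmr1-KO replicates 1 to 3. Every Fmr1-KO library lay above every WT library, and WT replicate 3 was the lowest of the 6. The mean was 109.6 ± 7.06 CPM in WT and 161.8 ± 6.52 CPM in Fmr1-KO (SD, n = 3 each), an increase of 47.6% (log2 fold-change 0.56, SE 0.04; adjusted P 5.36e-10 by edgeR). Across all alternatives its log2 fold-change stayed at 0.51 or above.

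The promoter sequence of Pou3f2 is shown because this gene carries the largest change. That of Rorb is shown because it is the other factor with a RefSeq start at the start of the gene in GENCODE M21. Neither window holds an annotated exon of its own gene, and exons of other genes were not checked. Each window is the 250 bases before the start, written 5′ to 3′ on the strand of the gene, from RefSeq on GRCm38.p6. Capitals mark the letters CCAAT or, on the other strand, ATTGG. The Pou3f2 window is chr4:22488367-22488616 and that of Rorb is chr19:19111197-19111446, both on the minus strand.
Pou3f2: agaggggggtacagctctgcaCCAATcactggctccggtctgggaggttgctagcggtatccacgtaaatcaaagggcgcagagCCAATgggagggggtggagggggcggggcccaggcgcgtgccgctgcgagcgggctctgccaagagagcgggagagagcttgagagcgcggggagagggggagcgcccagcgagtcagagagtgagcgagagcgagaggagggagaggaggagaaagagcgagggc
Rorb: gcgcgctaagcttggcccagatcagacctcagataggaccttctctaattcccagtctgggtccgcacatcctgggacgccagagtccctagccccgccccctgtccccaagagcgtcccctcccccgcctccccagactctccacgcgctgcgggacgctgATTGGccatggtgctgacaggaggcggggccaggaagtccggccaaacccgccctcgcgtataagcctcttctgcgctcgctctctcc

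The Pou3f2 window holds the CCAAT letters 2 times and the Rorb window holds them 1 time, and 33.8% of 32851 mouse promoter windows of the same length hold them on either strand. The windows have a GC content of 66.8% and 66.0%, against a median of 52.4% over all windows. Neither holds the T-box half-site GGTGTGA (in 3.33% of windows on either strand), the neurogenic E-box CATCTG (14.4%) or the POU octamer ATGCAAAT (1.601%). A further RefSeq entry for Rorb, with a start 110079 bases downstream, is not shown. Its window holds the CCAAT letters 0 times and has a GC content of 39.2%. These matches describe letters in a window and say nothing about binding.

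Cux2 was the upper-layer factor that fell. It encodes a homeodomain protein of layers II to IV that regulates dendrite branching and spine formation, and lies on chromosome 5 from 121856366 to 122050102. Its level was 67.0, 68.0 and 66.2 CPM in the WT libraries and 61.1, 61.2 and 58.2 CPM in the Fmr1-KO libraries, in order of replicate. The genotypes did not overlap, but they lay close. The decrease was 10.3% (log2 fold-change -0.16, SE 0.04; adjusted P 0.00176 by edgeR). It was not called when a fold change above 1.2 was required, and it turned to 0.32 when libraries were scaled to projection neuron markers, a scaling that raised the median of all genes to 0.48. Most of that shift came from 1 of the 7 markers, Mef2c, which went from 447 to 121 CPM. With the other markers alone, a choice made after the data were seen, the median of all genes was 0.13 and Cux2 stood at -0.04 (edgeR adjusted P 0.535), below 0 but not called.

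Its homolog Cux1, on the same chromosome from 136248135 to 136567490, showed no such difference. CUX1 shares the layers and the dendritic functions of CUX2, but the Cux1 locus also encodes the Golgi protein CASP, and reads counted by gene name do not separate the 2. Cux1 had 212, 209 and 211 CPM in WT and 208, 207 and 212 CPM in Fmr1-KO libraries, so the genotypes overlapped. With a log2 fold-change of -0.01 (SE 0.03) Cux1 did not pass (edgeR adjusted P 0.828), and its sign depended on the scaling. Among the 9 factors Cux1 alone is on the list of nonsense-mediated decay targets that the study drew from neuroblastoma cells. The number of Cux2 reads per Cux1 read, which needs no scaling between libraries, was 0.319 ± 0.00613 in WT and 0.288 ± 0.0114 in Fmr1-KO (SD, n = 3 per genotype), and the genotypes did not overlap.

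Rorb encodes the nuclear receptor RORβ, which is concentrated in layer IV and helps to shape the barrels of the somatosensory cortex. It lies on chromosome 19 from 18930605 to 19111196. Its level was 32.1, 32.1 and 30.1 CPM in WT and 28.3, 32.1 and 26.5 CPM in Fmr1-KO. The genotypes overlapped because Fmr1-KO replicate 2 lay at the level of WT replicates 1 and 2, whereas Fmr1-KO replicates 1 and 3 were lower than any WT library. Rorb stood at a log2 fold-change of -0.12 (SE 0.06; edgeR adjusted P 0.120). Leaving out Fmr1-KO replicate 2 gave -0.20 (edgeR adjusted P 0.00844). Leaving out Fmr1-KO replicate 3 gave -0.06 (edgeR adjusted P 0.491), so both the size of the difference and the call of Rorb rested on single libraries. With the scaling to projection neuron markers its log2 fold-change was 0.36, below the shift of all genes.

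**Figure D2:**
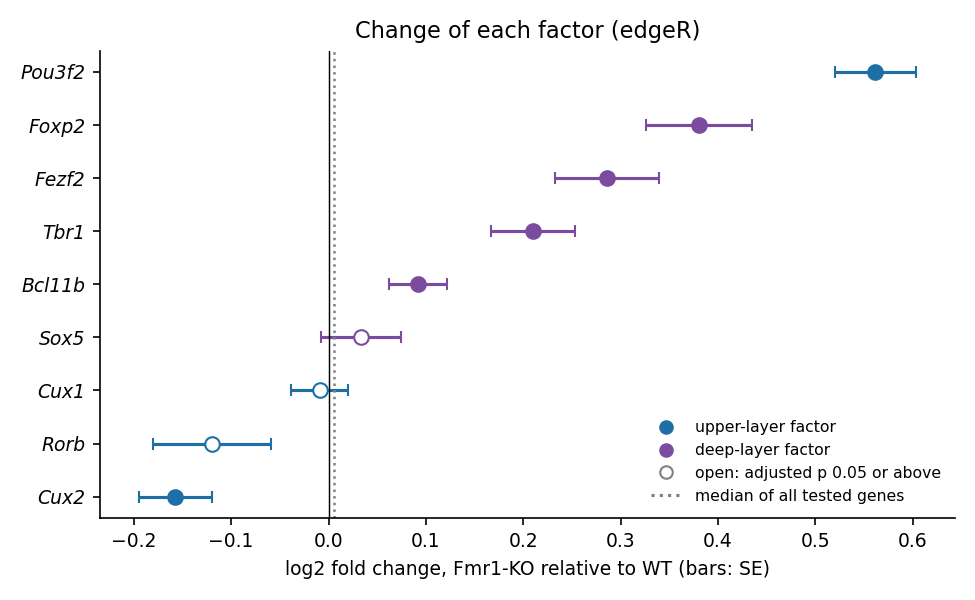
Log2 fold-change of each factor in Fmr1-KO relative to WT by edgeR (x axis, with SE as bars), ordered by size, with upper-layer factors in blue and deep-layer factors in purple; open points did not pass an adjusted P of 0.05. The 5 deep-layer factors lie at 0.03 or above, Pou3f2 lies farthest to the right at 0.56, and Cux2 (-0.16), Rorb (-0.12) and Cux1 (-0.01) lie below 0, a sign that for these upper-layer factors turned when libraries were scaled to projection neuron markers.

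Among the deep-layer factors, Foxp2 rose most. FOXP2 is a forkhead repressor of layer VI neurons and of striatal projection neurons, known for its part in speech and vocal learning. The gene lies on chromosome 6 from 14901349 to 15441977. It had 30.3, 33.03 and 30.6 CPM in WT and 37.2, 42.4 and 42.5 CPM in Fmr1-KO libraries. All Fmr1-KO libraries lay above all WT libraries, with Fmr1-KO replicate 1 the nearest to WT. The increase was 30.2% (log2 fold-change 0.38, SE 0.05; adjusted P 8.06e-06 by edgeR). Together with Pou3f2 it was one of the 2 factors still called when a fold change above 1.2 was required (adjusted P 0.0435 by edgeR). No promoter entry for Foxp2 was at hand.

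Fezf2, a zinc-finger gene that acts upstream of Bcl11b to give layer V neurons their subcerebral identity, had the lowest counts of the factors. It lies on chromosome 14 from 12342094 to 12348189 and had between 670 and 871 reads per library. Its level was 20.3, 20.3 and 20.7 CPM in WT and 24.3, 25.3 and 25.03 CPM in Fmr1-KO. The spread within each genotype was small beside the gap between them. Fezf2 rose by 21.95% (log2 fold-change 0.29, SE 0.05; adjusted P 0.000168 by edgeR).

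Bcl11b encodes CTIP2, a zinc-finger protein that corticospinal neurons of layer V need to extend and bundle their axons, and that striatal projection neurons and interneurons also make. It lies on chromosome 12 from 107910403 to 108003602. The level was 153, 153 and 152 CPM in WT and 164, 162 and 162 CPM in Fmr1-KO libraries. The genotypes did not overlap, and replicates lay close together (coefficient of variation 0.575% in WT and 0.630% in Fmr1-KO). The increase of 6.56% (log2 fold-change 0.09, SE 0.03) was called with an adjusted P of 0.0174 by edgeR. It is the least secure call of the group: the edgeR adjusted P was 0.0527 when WT replicate 1 was left out, 0.0579 for WT replicate 3 and 0.0626 for Fmr1-KO replicate 1, at log2 fold-changes of 0.09 each.

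Tbr1 encodes a T-box factor of layer VI and the subplate that directs corticothalamic identity, and lies on chromosome 2 from 61802930 to 61814114. It had 68.6, 65.9 and 72.1 CPM in WT and 78.6, 75.9 and 84.3 CPM in Fmr1-KO libraries. WT replicate 3 and Fmr1-KO replicate 2 came closest, and the genotypes did not overlap. Tbr1 rose by 15.7% (log2 fold-change 0.21, SE 0.04; adjusted P 0.000444 by edgeR), and by between 0.16 and 0.24 on the log2 scale when a library was left out. The number of Tbr1 reads per Fezf2 read was 3.37 ± 0.116 in WT and 3.20 ± 0.189 in Fmr1-KO (SD, n = 3 per genotype), and here the genotypes overlapped.

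Sox5 was the deep-layer factor that did not pass. SOX5 is a SoxD protein that sets the timing with which subplate, layer VI and layer V neurons are produced. The gene lies on chromosome 6 from 143828425 to 144781977. It had 47.9, 46.0 and 48.6 CPM in WT and 48.6, 49.6 and 47.6 CPM in Fmr1-KO, and the genotypes overlapped. The change in Sox5 was 0.03 on the log2 scale (SE 0.04; edgeR adjusted P 0.552), and among the alternatives it was called only with the scaling to projection neuron markers, at 0.51 with all of them and 0.15 without Mef2c. An antisense gene, Sox5os1, overlaps its exons, but the reads were counted by strand.

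In all, groups did not overlap for 5 factors that were higher and for 1 that was lower, and among all tested genes 25.4% did not overlap as higher and 26.3% as lower. The upper- and deep-layer factors were next set against each other within each library, as the mean log2 CPM of the upper-layer factors minus that of the deep-layer factors. This difference cannot be moved by scaling between libraries. It was 0.76, 0.77 and 0.67 in WT and 0.62, 0.65 and 0.53 in Fmr1-KO libraries, in order of replicate. The lowest WT library lay just above the highest Fmr1-KO library. The mean difference fell by 0.13 on the log2 scale in Fmr1-KO. No test was made of this score, since the factors were chosen with earlier results known.

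**Figure D3:**
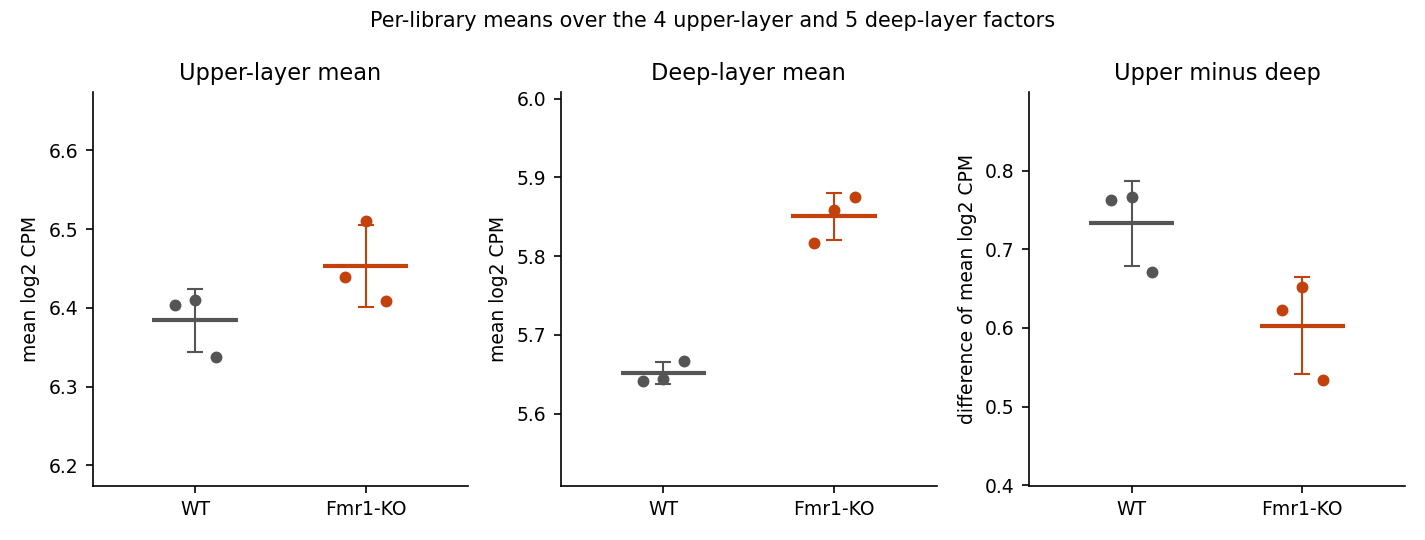
Mean log2 CPM of the 4 upper-layer factors (left), of the 5 deep-layer factors (middle), and their difference (right) in each library (points), with the mean as a bar and the SD as a whisker; the 3 axes span equal ranges and do not start at 0. The deep-layer mean is higher in all Fmr1-KO libraries (5.85 against 5.65), the upper-layer mean overlaps between genotypes, and the difference is lower in Fmr1-KO (0.60 against 0.73).

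The larger difference was on the deep-layer side, where the mean went from 5.65 ± 0.0140 to 5.85 ± 0.0302 and the upper-layer mean went from 6.38 ± 0.0402 to 6.45 ± 0.0521 (SD, n = 3 per genotype; log2 CPM). The upper-layer mean depended on Pou3f2. When Pou3f2 was left out, a choice made after its value was seen, the difference was 0.62, 0.62 and 0.56 in WT and 0.34, 0.35 and 0.23 in Fmr1-KO, and its mean fell by 0.30 on the log2 scale. When Bcl11b and Foxp2 were left out instead, because striatal neurons also make them, the difference was 1.06, 1.11 and 0.95 in WT and 0.94, 0.99 and 0.87 in Fmr1-KO, so that WT replicate 3 lay within the Fmr1-KO range. The mean fell by 0.11 in that case.

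Levels can be compared between genes only per length, and were therefore divided by the kilobases of annotated exon of each gene. On this scale Pou3f2 (19.6 ± 1.26 CPM per kb) and Bcl11b (18.8 ± 0.108) were highest in WT, and did not differ beyond their spread (SD, n = 3). Tbr1 (12.5) and Cux1 (10.5) followed, then Fezf2 (6.70 ± 0.0819) and Cux2 (6.65 ± 0.0881), which overlapped, and then Sox5 (3.30), Rorb (2.83) and Foxp2 (1.91). The order was the same in Fmr1-KO, but some neighbours moved relative to each other. Pou3f2, at 29.0 ± 1.17 CPM per kb, no longer overlapped Bcl11b at 20.04 ± 0.126, and Fezf2 at 8.17 ± 0.172 no longer overlapped Cux2 at 5.97 ± 0.165. Rorb (2.61 ± 0.256) and Foxp2 (2.49 ± 0.186) came to overlap. Exon length here is the union over all annotated transcripts, which understates the level of genes with many of them, such as Foxp2 with 20 and Cux1 and Sox5 with 14 each.

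**Figure D4:**
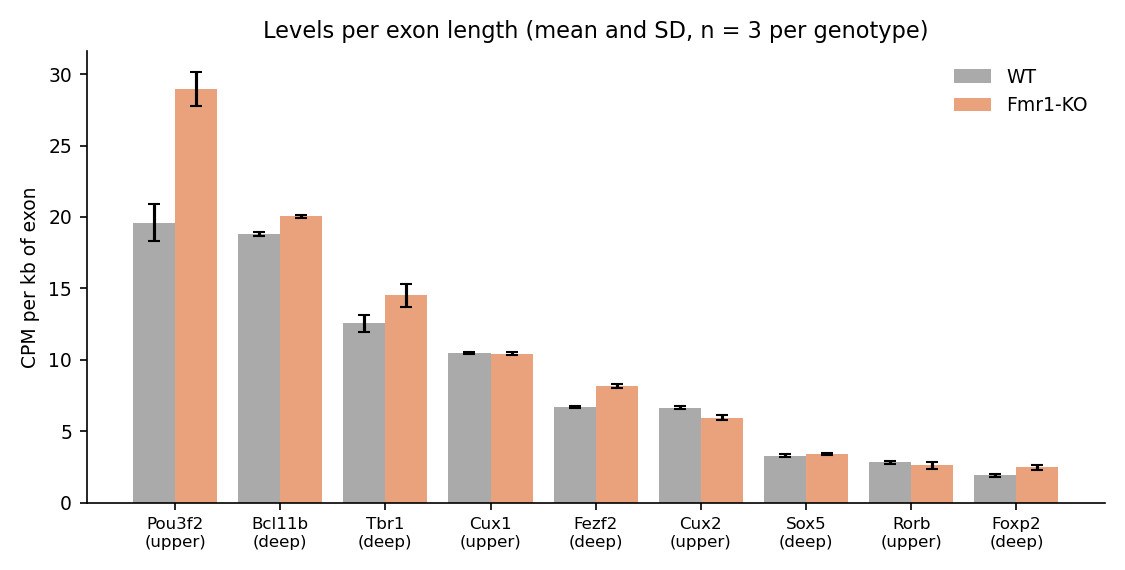
Mean level of each factor in CPM per kb of annotated exon (y axis, starting at 0), with SD as error bars (n = 3), in WT (grey) and Fmr1-KO (orange), ordered by the WT level. Pou3f2 and Bcl11b are close in WT (19.6 and 18.8) and apart in Fmr1-KO (29.0 and 20.04), while Fezf2 and Cux2 are close in WT (6.70 and 6.65) and apart in Fmr1-KO (8.17 and 5.97).

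Upper- and deep-layer factors were also set against each other as ratios of read counts within a library, which no scaling affects. The number of Cux2 reads per Tbr1 read did not overlap between genotypes, at 0.976 ± 0.0568 in WT and 0.758 ± 0.0599 in Fmr1-KO, and neither did that of Rorb per Fezf2 read (1.54 ± 0.0753 and 1.16 ± 0.103). These pairs were picked after the values of their genes had been seen.

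Other genes known for their place in the layers were set beside the factors. As the background for the count of each list, 20.7% of all tested genes were called higher and 21.9% lower. With the scaling to projection neuron markers, 682 genes were called lower and 13476 higher, and decreases smaller than its shift of all genes turned in sign, which holds for the lists described next as well. Of 10 other upper-layer genes, 7 fell and 2 rose, with a median log2 fold-change of -0.31. The largest decreases were those of Rasgrf2, a Ras exchange factor of layer II and III neurons (38.3 to 9.36 CPM, log2 fold-change -2.03), Inhba, which encodes the activin subunit (-1.77), and Plxnd1, a semaphorin receptor (-0.97). Unc5d (0.34), a netrin receptor of migrating upper-layer neurons, and Pou3f3 (0.27), which encodes BRN1, rose. These 5 genes passed by edgeR.

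Of 16 other deep-layer genes, 5 fell and 1 rose (21.9% and 20.7% of all tested genes), with a median log2 fold-change of -0.07. Ntsr1, the neurotensin receptor of corticothalamic neurons, fell from 26.3 to 14.5 CPM (log2 fold-change -0.86), and Hs3st4, named after its value was seen and at a mean under 5 CPM, stood at -2.02. Rprm (-0.49) and Crym (-0.37), markers of corticofugal neurons, also fell, and Crim1 (0.23), a marker of corticospinal neurons, rose. Each of these passed by edgeR. Tle4 (0.06), the co-repressor of layer VI, and Etv1 (-0.09), the ETS factor of layer V, did not pass (adjusted P 0.272 and 0.109 by edgeR), and they are named here after their values were seen. In all, 10 of the 16 genes were not called, Tle4 and Etv1 among them. The difference between this list and the deep-layer factors was not tested.

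The subplate, the layer beneath the cortical plate whose neurons are the earliest born, was represented by 8 genes, of which 4 fell and 1 rose (median log2 fold-change -0.67). Tmem163 (-1.02), Nr4a2 (-1.004) and Kcnab1 (-0.89) fell most, and Ccn2 (0.37) rose. Of 10 genes that regulate cortical fate, 6 rose and 1 fell (median 0.12). Sox11 (0.48), a factor of newborn neurons, and Otx1 (0.24), a homeobox gene of layer V, were among those that rose, and Ski (-0.18), a transcriptional co-repressor, fell.

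**Figure D5:**
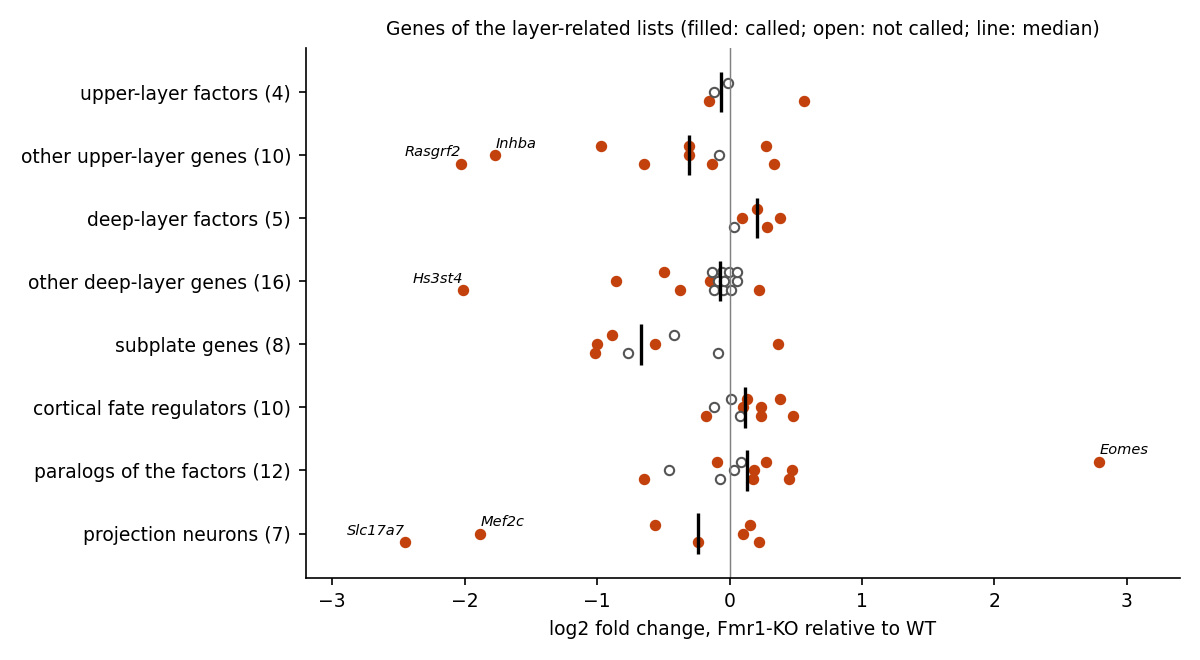
Log2 fold-change in Fmr1-KO relative to WT (x axis) of each tested gene in 8 lists (rows, with the number of genes tested), where filled points were called by edgeR, open points were not, and the vertical line is the median of the list. The other upper-layer genes, other deep-layer genes and subplate genes reach farther to the left than the factors themselves, with Rasgrf2 at -2.03, and Eomes lies apart at 2.79.

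The paralogs of the factors were also examined. Of 14, 12 were tested, of which 6 rose and 2 fell (median 0.13). Within the POU family, Pou3f4 (0.47) and Pou3f3 (0.27) rose like Pou3f2 and Pou3f1 fell (-0.64). The closest relative of Tbr1, Eomes, which marks intermediate progenitors, went from 9.12, 13.1 and 9.29 CPM in WT to 74.0, 80.0 and 64.4 CPM in Fmr1-KO libraries (log2 fold-change 2.79). The number of Tbr1 reads per Eomes read was 7.52, 5.03 and 7.76 in WT and 1.06, 0.949 and 1.31 in Fmr1-KO libraries, in order of replicate. Foxp1 went the other way from Foxp2, at -0.10 (adjusted P 0.0351 by edgeR). The number of Foxp2 reads per Foxp1 read was 0.306 ± 0.0246 in WT and 0.424 ± 0.0274 in Fmr1-KO (SD, n = 3 per genotype). Bcl11a (0.18) rose, as did Bcl11b, and Sox6 (0.04), like Sox5, did not pass (adjusted P 0.465 by edgeR), and Bcl11a and Sox6 are named after their values were seen.

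Markers of other cells also differed between genotypes. The counts in each marker list, here and below, stand beside 20.7% of all tested genes called higher and 21.9% called lower. The 9 intermediate progenitor markers summed to between 240 and 272 CPM in WT and between 394 and 437 CPM in Fmr1-KO, and 7 of 8 tested rose. The 10 markers of proliferating cells summed to between 412 and 466 CPM in WT and between 749 and 834 CPM in Fmr1-KO, and all 10 rose. Radial glia markers summed to between 3605 and 3667 CPM in WT and between 3955 and 4003 CPM in Fmr1-KO, with 4 of 10 higher and 1 lower. Progenitors also make Pou3f2, and the part of these cells in its rise was not tested.

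Striatal projection neurons, which make Bcl11b and Foxp2 too, and interneurons, which also make Bcl11b, were represented as well. The 14 striatal markers summed to between 376 and 384 CPM in WT and between 307 and 324 CPM in Fmr1-KO, the opposite direction from Bcl11b and Foxp2. Of these 14, 8 fell, among them Ppp1r1b (-0.91) and Pde10a (-0.37), and 3 rose, namely Six3 (0.74), Isl1 (0.56) and Rarb (0.25). The 14 interneuron markers summed to between 965 and 1003 CPM in WT and between 1034 and 1145 CPM in Fmr1-KO. The transcription factors Dlx2 (0.59) and Dlx1 (0.46) rose and the peptide genes Sst (-2.53) and Npy (-2.43) fell, with 7 of 14 higher and 5 lower. Those that fell also included the transcription factor Lhx6 (-0.44), named after its value was seen, and the transporter gene Slc32a1 (-0.53). None of the markers in these lists was at 0 in all libraries, and their part in the levels of Bcl11b and Foxp2 was not tested.

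Among the 7 markers of cortical projection neurons 3 were higher and 4 were lower. The transcription factors Neurod2 (0.22), Neurod6 (0.16) and Bhlhe22 (0.10) rose by amounts like those of the deep-layer factors, and the vesicular glutamate transporter genes Slc17a7 (-2.45) and Slc17a6 (-0.56) and the activity-regulated factor Mef2c (-1.88) fell, each called by edgeR. Pan-neuronal genes fell in 9 of 11 cases, led by the neurofilament genes Nefl (-1.90) and Nefm (-1.35) and the synaptotagmin gene Syt1 (-0.84), while Elavl4 (0.41) and Dcx (0.08), the gene of immature migrating neurons, rose.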

How the data were processed

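RNA-seq was carried out on cultured P1 cortical cells from WT and Fmr1-KO mice. The authors deposited raw counts per gene name, without normalization. Per the methods and labels, reads were single-end from stranded poly(A) libraries, trimmed with FastP, mapped with STAR (2.7.6a in the submitters' processing notes) to GRCm38.p6 and assigned to exons by strand with featureCounts. Counts by name do not separate isoforms.

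edgeR 4.0.16 in R 4.3.3 was run on the whole table (filterByExpr, TMM, glmQLFit and glmQLFTest, 2-sided, genotype as the only term), with calls at a Benjamini-Hochberg adjusted P under 0.05 over 16976 genes. The authors used DESeq2; version 1.42.0 was an alternative. The SE is the log2 fold-change divided by the square root of F. The fit was tested on simulated data, in which 200 of 16976 genes changed by 1 on the log2 scale. It recovered 89.5% of these and called 0.0477% of the unchanged genes. Smaller changes, such as those of the factors, and changes in many genes were not simulated. Replicates differed by more than counting noise (chi-square per degree of freedom 2.91 in WT and 3.15 in Fmr1-KO). Coordinates and exon lengths are from GENCODE M21 (GRCm38), which held 98.6% of tested names, and promoters from RefSeq, with entries for 8 of 9 factors.

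The factors and the gene lists were chosen with earlier results of these data known. Named genes are the factors, Fmr1, Eomes and, per list, at most the 3 largest called changes in each direction at a mean of 5 CPM or more; some genes that the rule names are not reported here, and 8 further genes (Tle4, Etv1, Hs3st4, Bcl11a, Sox6, Flt1, Cdh5 and Pecam1) were named after their values were seen. The other lists were upper-layer, deep-layer and subplate genes, fate regulators, paralogs, projection neurons, pan-neuronal genes, intermediate progenitors, radial glia, proliferating cells, striatal neurons, interneurons, Cajal-Retzius cells, oligodendrocyte precursors, astrocytes, microglia and endothelial cells. Alternatives were DESeq2, 5 other scalings, 2 other filters, a minimum fold change of 1.2, a replicate block and leaving out each library.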

Additional observations from a re-analysis of the deposited data

How the results depend on the processing

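Scaling to the summed counts of the 7 projection neuron markers moved the median log2 fold-change of all genes from 0.01 to 0.48 and every factor with it. Under it 0 upper-layer factors were lower and 4 were higher, and the medians were 0.41 for upper-layer and 0.69 for deep-layer factors. Cux1 (0.47), Cux2 (0.32) and Rorb (0.36) changed sign under it, by its construction. Without Mef2c among those markers, chosen after seeing the data, the median of all genes was 0.13, 2050 genes were lower and 6834 higher, 0 upper-layer factors were lower and 2 were higher, the medians were 0.0569 for upper-layer and 0.33 for deep-layer factors, and Cux1 (0.11) and Rorb (0.00248) changed sign. Cux1 was also 0.00134 under upper-quartile scaling. Library totals alone gave 0.0186 for Cux1 and a deep-layer median of 0.24. With a minimum fold change of 1.2, 0 upper-layer factors were lower and 1 deep-layer factor was higher, as a stricter test calls fewer genes. Across the 6 fits that each left out a library, the number of upper-layer factors called lower ran from 1 to 2 (Rorb was added without Fmr1-KO replicate 2), that of deep-layer factors called higher from 3 to 4 (Bcl11b was lost in 3 fits), the deep-layer median from 0.16 to 0.24, the upper-layer median from -0.09 to -0.04, and the difference of upper minus deep from -0.16 to -0.10. With Pou3f2 left out, chosen after seeing the data, the upper-layer median was -0.12 and that difference was -0.30. Among the values recomputed for the factors, Fmr1 and Eomes, 158 stayed on their side of the threshold with their sign, 8 lost and 3 gained a call, and 7 changed sign.

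Replicate numbers did not pair the libraries: same-numbered deviations from the genotype means correlated at -0.0289, 0.0323 and -0.0147, and 2 of 6 libraries correlated best with their own number. Adding a replicate block to the fit gave 3694 lower and 3488 higher genes, the upper-layer median was -0.06 and the deep-layer median 0.21, and no call among the factors changed. The factors had at least 670 reads in every library.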

Other observations

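Markers of non-neuronal cells and of Cajal-Retzius cells, the early neurons of the marginal zone, also differed between genotypes. Their counts stand beside 21.9% of all tested genes called lower and 20.7% called higher. All 6 oligodendrocyte precursor markers fell, with a median log2 fold-change of -0.67, led by Olig2 (-0.74), Olig1 (-0.71) and Sox10 (-0.69), and their sum ran from 972 to 988 CPM in WT and from 621 to 656 CPM in Fmr1-KO. Of 6 microglia markers, 5 fell, led by Aif1 (-1.07) and the complement gene C1qa (-1.05), and their sum was between 120 and 134 CPM in WT and between 76.0 and 83.3 CPM in Fmr1-KO. Of 6 astrocyte markers, 4 fell, among them S100b (-0.94), the water channel gene Aqp4 (-0.72) and Gfap (-0.21), and Gja1 (0.30) rose. Of 5 Cajal-Retzius markers, 4 fell and 1 rose. Those that fell include Lhx1 (0.85 to 0.38 CPM) and Lhx5 (0.65 to 0.26 CPM), which had few reads. Reln, the gene of reelin, the secreted protein that guides layer formation, went from 171 to 52.8 CPM (-1.70). Trp73 rose by 0.24, but its genotypes overlapped. Of 4 tested endothelial markers, Kdr (1.23) and Flt1 (0.41) rose, Cdh5 (-0.66) fell and Pecam1 (0.35) was not called, and Kdr alone went from 7.27 to 17.1 CPM while each of the other 3 stayed at a mean under 3 CPM. In radial glia, Pax6 (0.52), Nes (0.28) and Vim (0.22) rose and Hopx (-0.40) fell. Each gene named here except Pecam1 passed an adjusted P of 0.05 by edgeR. Lhx1, Lhx5, Flt1, Cdh5 and Pecam1 were named after their values were seen.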
